A study of Homo sapiens with 6 samples.

Results

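The MHC class I pathway was followed in the human bladder cancer line T24 through 9 genes chosen by name for their roles: the heavy chains HLA-B, HLA-C and HLA-E, the light chain beta-2 microglobulin (B2M), the peptide transporter subunits TAP1 and TAP2, the loading chaperone tapasin (TAPBP), and the immunoproteasome subunits PSMB8 and PSMB9. They were 9 of the 58288 Ensembl gene identifiers in the deposited count table, and all 9 were among the 14415 genes that passed the filter on low counts. The cells were transfected with a control siRNA (NC), with si-circ235-1 or with si-circ235-2. Both si-circ235 reagents were directed at the looping site of circ235 (circ_0000235), a circular RNA, so that genes downstream of circ235 could be sought. Each condition had 2 libraries described as biological replicates, which gave 6 libraries of poly(A)-selected RNA from 1 cell line after transient transfection. The level of circ235 itself was not analysed here, since poly(A) selection and counting per gene do not measure a circular RNA. No library therefore carried a check of its knockdown. Whether replicates came from separate cultures was not stated, so the p-values measure the spread between these libraries.

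MHC class I molecules display short peptides from the inside of a cell to CD8+ T cells. The proteasome cuts proteins into peptides, TAP1 and TAP2 carry the peptides into the endoplasmic reticulum, tapasin holds an empty heavy chain next to the transporter, and a loaded heavy chain leaves for the cell surface bound to B2M. Interferon-gamma raises most of these genes in many cell types and exchanges catalytic subunits of the proteasome for the immunoproteasome subunits, and tumours are known to lose parts of the pathway.

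The libraries held 15373992 to 19912893 counts. Over genes with at least 10 counts in a replicate pair, the chi-square of a pair divided by its degrees of freedom was 21.7 to 33.3, more than counting error gives, so no library was a repeat of another. Levels are given in CPM (counts scaled by library size, here after TMM factors). Of 5 epithelial markers, KRT7, KRT8 and KRT18 held nearly all of a sum of 3899 to 5566 CPM in NC, 4262 to 4592 CPM under si-circ235-1 and 3057 to 3642 CPM under si-circ235-2, while EPCAM was at 1.28 to 2.93 CPM and KRT19 had at most 1 count in any library. KRT7 fell under si-circ235-2, at a log2 fold change of -0.76 (SE 0.22, edgeR adjusted p = 0.0260). Of 6 urothelial markers, UPK3A was at 0 in every library and PPARG held most of the sum, which was 23.7 to 24.4 CPM in NC, 40.6 to 48.3 CPM under si-circ235-1 and 50.3 to 52.1 CPM under si-circ235-2. PPARG rose under both, at 0.90 (SE 0.19, edgeR adjusted p = 0.0264) and 1.13 (SE 0.19, adjusted p = 0.0031). The leukocyte markers PTPRC, CD3E and LYZ were at 0 in all 6 libraries. The sum over all 6 leukocyte markers was 2.82 to 3.06 CPM in NC, 9.99 to 10.98 CPM under si-circ235-1 and 1.77 to 2.12 CPM under si-circ235-2, nearly all of it CD14. CD14 rose under si-circ235-1, at 1.87 (SE 0.29, edgeR adjusted p = 0.0104), and had -0.57 (SE 0.30, adjusted p = 0.176) under si-circ235-2. The 3 endothelial markers summed to 0.489 to 2.62 CPM and the 4 fibroblast markers to 0.525 to 1.68 CPM. The part of these shifts in the values of the class I genes was not tested.

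On GRCh38 with GENCODE release 29, 8 of the 9 genes lie in the MHC region of chromosome 6. HLA-E spans chr6:30489467-30494205 on the plus strand. HLA-C (chr6:31268749-31272130) and HLA-B (chr6:31269491-31357188) both lie on the minus strand, and the annotated span of HLA-B runs through HLA-C. TAP2 (chr6:32821833-32838780), PSMB8 (chr6:32840717-32844703) and TAP1 (chr6:32845209-32853978) follow each other on the minus strand. PSMB9 (chr6:32844136-32859585) lies on the plus strand and crosses TAP1, and TAPBP (chr6:33299694-33314387) is on the minus strand. B2M stands apart, on the plus strand of chr15:44711487-44718877. The transcription starts of TAP1 and PSMB9 are 488 bases apart and point away from each other in RefSeq. Several members share exonic bases with a neighbour, and the sequencing kept no strand: TAP2 shares 2064 of its 6390 exonic bases with AL669918.1, PSMB8 shares 618 with PSMB8-AS1 and 139 with PSMB9, TAP1 shares 456 with PSMB8-AS1, and HLA-B shares 542 with AL671883.2. AL669918.1, PSMB8-AS1 and AL671883.2 were listed at 0 counts in every library, and whether their reads were given to the members was not tested.

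Stretches of the promoters are shown to set side by side which letters of known control elements each member holds. RefSeq promoter windows (GRCh38.p14, from 250 bases before to 50 bases after a start) were found for 8 of the 9 genes, all but HLA-E. Capitals mark matches, on either strand, to 4 motifs: the interferon-stimulated response element (GAAA, any 2 bases, then GAAA), the NF-kappaB site, TGACG (the core of a cAMP response element, part of the class I enhanceosome) and ATTGG (an inverted CCAAT box). Each stretch was taken to show the matches, and not every match of the 300-base windows is in it. In the B2M, TAP1 and TAPBP stretches neighbouring response element matches overlap and are written as 1 run of capitals.
HLA-B (chr6:31357225-31357364, minus strand): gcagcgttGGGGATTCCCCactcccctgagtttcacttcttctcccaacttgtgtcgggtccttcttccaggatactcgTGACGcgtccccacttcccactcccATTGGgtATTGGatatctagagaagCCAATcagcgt
HLA-C (chr6:31272138-31272277, minus strand): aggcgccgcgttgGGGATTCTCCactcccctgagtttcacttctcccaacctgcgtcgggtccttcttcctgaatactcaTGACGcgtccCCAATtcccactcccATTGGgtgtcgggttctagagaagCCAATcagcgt
B2M (chr15:44711365-44711479, plus strand): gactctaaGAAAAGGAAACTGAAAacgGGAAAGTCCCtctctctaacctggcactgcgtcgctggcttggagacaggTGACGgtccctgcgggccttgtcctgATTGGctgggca
TAP1 (chr6:32853760-32853844, minus strand): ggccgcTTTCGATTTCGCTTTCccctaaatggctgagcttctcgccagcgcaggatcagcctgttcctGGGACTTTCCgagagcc
TAP2 (chr6:32838780-32838809, minus strand): ggctggggaagcGAAAGCGAAAgctgcccg
TAPBP (chr6:33314080-33314144, minus strand): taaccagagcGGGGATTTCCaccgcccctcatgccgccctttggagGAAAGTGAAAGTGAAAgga
PSMB8 (chr6:32844033-32844061, minus strand): gatctgtggcTTTCGCTTTCacttcctcc
PSMB9 (chr6:32854036-32854065, plus strand): gcggggctgcctCGTCActtgtctcggggc

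The response element letters were present in 5 of 8 members (B2M, PSMB8, TAP1, TAP2 and TAPBP), against 4.38% of 27305 genes with a window. The NF-kappaB letters were present in 5 of 8 (B2M, HLA-B, HLA-C, TAP1 and TAPBP), against 7.09% of genes. TGACG was present in 6 of 8 against 28.4%, and ATTGG in 5 of 8 against 39.7%. HLA-B and HLA-C carried the NF-kappaB letters, TGACG and CCAAT boxes in the same order, and their stretches differ in spacing and in single bases. PSMB9 held TGACG and ATTGG matches only among these motifs, in a window that begins 250 bases before its start. The response element and NF-kappaB matches in the printed TAP1 stretch lie between the TAP1 and PSMB9 starts, outside the PSMB9 window. The ATTGG match of PSMB9 is the same genomic site as that of TAP1, and it was counted for each. Only exact matches were counted. A missing match, as for the response element in HLA-B and HLA-C, does not show that the element is absent. These matches describe letters in 300-base windows, and no binding was measured.

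In NC cells the pathway genes differed widely in level (RPKM, the CPM divided by the exonic length in kilobases, mean ± SD, n = 2). B2M stood highest at 55.0 ± 2.30 RPKM, above 93.7% of the 14386 tested genes with a length. PSMB8 followed at 19.9 ± 4.61 RPKM, HLA-E at 15.6 ± 0.196 and PSMB9 at 12.2 ± 2.84. The difference between PSMB8 and HLA-E was smaller than the SD of PSMB8, so their order was not resolved. TAP1 was at 6.45 ± 0.00603 RPKM and TAPBP at 3.54 ± 0.885 RPKM. HLA-B was at 1.77 ± 0.660 RPKM, above 35.6% of tested genes. TAP2 was at 0.354 ± 0.109 RPKM and HLA-C at 0.212 ± 0.114 RPKM, above 11.5% and 6.92% of tested genes, and the libraries of these last 2 overlapped. The mRNA of HLA-E, the nonclassical heavy chain that presents signal peptides to NK cell receptors, was thus counted above those of HLA-B and HLA-C, which present peptides to T cells. HLA-B and HLA-C are highly polymorphic and similar in sequence, so reads of an allele far from the reference, or reads shared between them, make their counts uncertain. The part of such reads in these values was not tested.

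**Figure D1:**
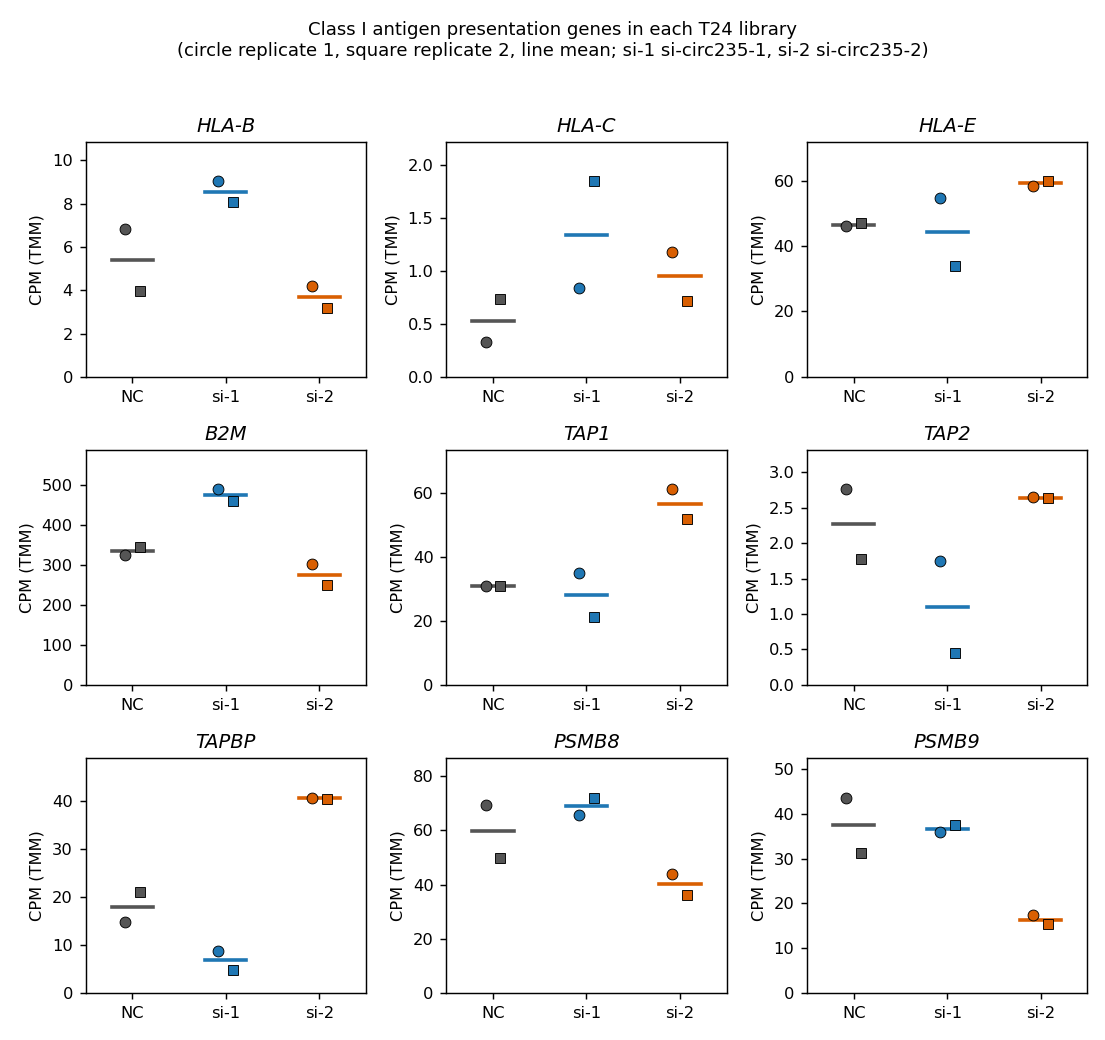
CPM of each of the 9 class I genes (vertical axes, linear and starting at 0) in the 2 NC, 2 si-circ235-1 (si-1) and 2 si-circ235-2 (si-2) libraries, with circles for replicate 1, squares for replicate 2 and a line at the mean. TAPBP was lowest under si-circ235-1 (4.80 and 8.74 CPM) and highest under si-circ235-2 (40.4 and 40.7 CPM), while PSMB9 was lowest under si-circ235-2 (15.3 and 17.5 CPM).

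Against NC, TAPBP fell under si-circ235-1 and rose under si-circ235-2, TAP1 rose and PSMB9 fell under si-circ235-2, and HLA-B, HLA-C, HLA-E and B2M did not pass the test under either siRNA. In bulk RNA, fewer cells of a kind and less RNA per cell cannot be told apart. Of the 9 genes, 1 was called under si-circ235-1 (edgeR quasi-likelihood test, Benjamini-Hochberg adjusted p under 0.05, called hereafter), and it was lower. Over all tested genes, 5.88% were called there, 2.24% higher and 3.64% lower. Under si-circ235-2, 3 of 9 were called, 2 higher and 1 lower, and the share over all genes was 31.4%, with 15.7% higher and 15.7% lower. A count of 3 in 9 is close to that background and is no result about these genes as a set. The median log2 fold change of the members was -0.03 under si-circ235-1 and 0.23 under si-circ235-2, beside -0.03 and -0.004 over all genes.

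The classical heavy chains were low and variable. HLA-B had 6.82 and 3.97 CPM in the NC libraries, 9.02 and 8.09 CPM under si-circ235-1 and 4.19 and 3.20 CPM under si-circ235-2. Both si-circ235-1 libraries lay above both NC libraries, whereas the si-circ235-2 libraries overlapped with NC. Its log2 fold change against NC was 0.67 (SE 0.32, edgeR adjusted p = 0.221) under si-circ235-1 and -0.55 (SE 0.33, adjusted p = 0.226) under si-circ235-2. HLA-C had 5 and 12 counts in NC, 12 and 33 under si-circ235-1, and 20 and 15 under si-circ235-2, or 0.328 to 1.84 CPM. At this depth no difference of HLA-C could be shown, with log2 fold changes of 1.33 (SE 0.65, edgeR adjusted p = 0.227) and 0.80 (SE 0.66, adjusted p = 0.382).

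HLA-E had 46.1 and 46.9 CPM in NC, 54.7 and 33.9 CPM under si-circ235-1 and 58.5 and 59.7 CPM under si-circ235-2. The si-circ235-1 libraries fell on both sides of NC, and both si-circ235-2 libraries were above it. Neither difference passed the test, with log2 fold changes of -0.07 (SE 0.23, edgeR adjusted p = 0.883) and 0.34 (SE 0.23, adjusted p = 0.275). With the counts of the 3 heavy chains summed, the log2 fold change was 0.05 (SE 0.21, edgeR adjusted p = 0.919) under si-circ235-1 and 0.28 (SE 0.21, adjusted p = 0.333) under si-circ235-2, values set mostly by HLA-E.

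B2M, the light chain of class I molecules, had 325 and 345 CPM in NC, 490 and 462 CPM under si-circ235-1 and 303 and 251 CPM under si-circ235-2. The 3 conditions did not overlap, with si-circ235-1 above NC and si-circ235-2 below it. Neither difference from NC passed the test, at a log2 fold change of 0.51 (SE 0.19, edgeR adjusted p = 0.129) and -0.27 (SE 0.19, adjusted p = 0.298). DESeq2 in place of edgeR gave 0.53 with an adjusted p of 0.0469 for B2M under si-circ235-1.

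The transporter subunits were unlike in level and in test. TAP1 had 31.0 CPM in both NC libraries, 35.2 and 21.2 CPM under si-circ235-1 and 61.2 and 52.1 CPM under si-circ235-2. It rose 1.83-fold under si-circ235-2, with a log2 fold change of 0.87 (SE 0.25, edgeR adjusted p = 0.0219). Under si-circ235-1 its libraries lay on both sides of NC, with a log2 fold change of -0.14 (SE 0.25, adjusted p = 0.771). TAP2 rested on 42 and 29 counts in NC, 25 and 8 under si-circ235-1 and 45 and 55 under si-circ235-2. Its log2 fold changes of -1.08 (SE 0.56, edgeR adjusted p = 0.257) and 0.23 (SE 0.51, adjusted p = 0.771) did not pass the test.

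TAPBP gave the clearest contrast. It had 14.8 and 21.1 CPM in NC, 8.74 and 4.80 CPM under si-circ235-1 and 40.7 and 40.4 CPM under si-circ235-2. The 3 conditions did not overlap, and the si-circ235-2 libraries were close to each other. TAPBP fell 2.66-fold under si-circ235-1, at a log2 fold change of -1.41 (SE 0.31, edgeR adjusted p = 0.0273), and rose 2.26-fold under si-circ235-2, at 1.18 (SE 0.29, adjusted p = 0.0126).

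The immunoproteasome subunits were lower under si-circ235-2, and 1 of the 2 passed the test. PSMB9 (beta-1i), which takes the place of the caspase-like subunit, had 43.6 and 31.3 CPM in NC, 35.8 and 37.5 CPM under si-circ235-1 and 17.5 and 15.3 CPM under si-circ235-2. The si-circ235-1 libraries lay between the NC libraries, and the si-circ235-2 libraries lay below all others. PSMB9 fell 2.29-fold under si-circ235-2, at a log2 fold change of -1.19 (SE 0.23, edgeR adjusted p = 0.00434), and had -0.03 (SE 0.22, adjusted p = 0.952) under si-circ235-1. PSMB8 (beta-5i), which takes the place of the chymotrypsin-like subunit, had 69.4 and 49.9 CPM in NC, 65.9 and 72.2 CPM under si-circ235-1 and 44.0 and 36.2 CPM under si-circ235-2. Both si-circ235-2 libraries were below NC, but the log2 fold change of -0.57 (SE 0.21, edgeR adjusted p = 0.0611) did not pass the test. Under si-circ235-1 it was 0.21 (SE 0.21, adjusted p = 0.577).

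**Figure D2:**
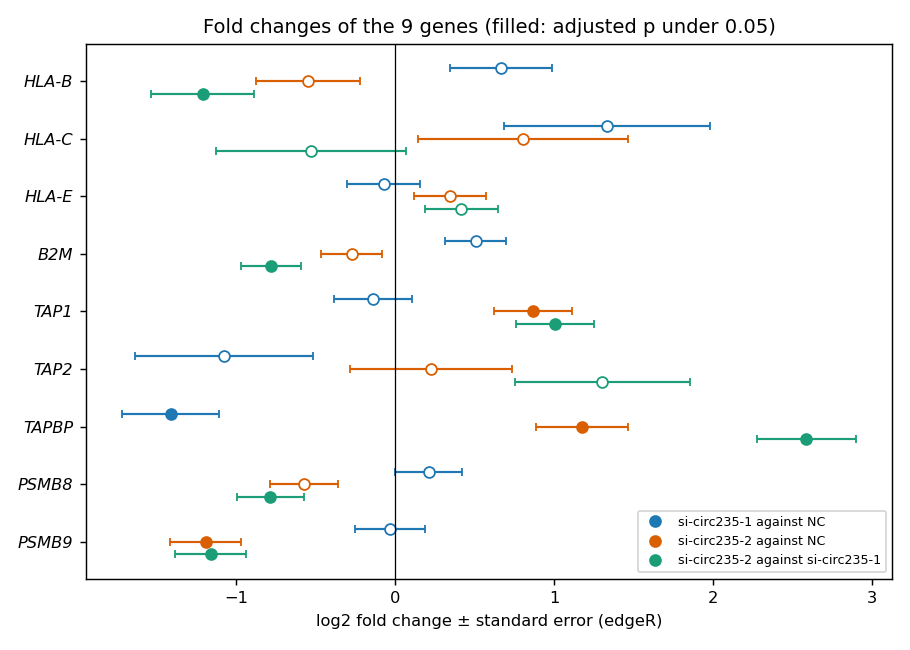
Log2 fold change with its standard error (horizontal axis) of each class I gene under si-circ235-1 against NC, si-circ235-2 against NC and si-circ235-2 against si-circ235-1, with filled points for an edgeR adjusted p under 0.05. The TAPBP points run from -1.41 to 2.59, and 6 of the 9 points of the direct comparison of the siRNAs are filled.

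These calls rested on few libraries. Calls over all tested genes also fell in each of the fits below, by a little in some and by most in others. Whether any loss was particular to these genes was not tested. The TAPBP call under si-circ235-1 was lost without NC replicate 1 (-1.65, adjusted p = 0.0661), without NC replicate 2 (-1.09, adjusted p = 0.140) and without si-circ235-1 replicate 2 (-1.03, adjusted p = 0.225). Without NC replicate 1, all 3 calls under si-circ235-2 were lost, TAP1 at 0.86 (adjusted p = 0.136), TAPBP at 0.94 (adjusted p = 0.142) and PSMB9 at -0.94 (adjusted p = 0.0589). The TAP1 call was also lost without NC replicate 2 (adjusted p = 0.0685) and without si-circ235-2 replicate 1 (adjusted p = 0.0518). PSMB8 was called under si-circ235-2 without NC replicate 2, at -0.78 (adjusted p = 0.0324).

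The 2 siRNAs differed from each other in 6 of the 9 genes, against 39.7% of all tested genes. TAP1 and TAPBP were higher under si-circ235-2, as were 21.1% of all tested genes, and HLA-B, B2M, PSMB8 and PSMB9 were lower, as were 18.6%. TAPBP had the largest difference of the 9, 6.02-fold higher under si-circ235-2 at a log2 difference of 2.59 (SE 0.31, edgeR adjusted p = 0.000522), and by p it ranked 128 of 14415 genes. TAP1 was 2.01-fold higher, at 1.01 (SE 0.25, adjusted p = 0.00871).

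The 4 genes with less RNA under si-circ235-2 than si-circ235-1 included a heavy chain, the light chain and both proteasome subunits. HLA-B was lower by 2.32-fold (log2 difference -1.21, SE 0.32, edgeR adjusted p = 0.0131) and PSMB9 by 2.24-fold (-1.16, SE 0.23, adjusted p = 0.00277). B2M was lower by 1.72-fold (-0.78, SE 0.19, adjusted p = 0.0089) and PSMB8 by 1.72-fold (-0.79, SE 0.21, adjusted p = 0.0140). HLA-C, HLA-E and TAP2 were not called, at -0.53 (SE 0.60, adjusted p = 0.509), 0.42 (SE 0.23, adjusted p = 0.170) and 1.30 (SE 0.55, adjusted p = 0.0812). The median difference of the 9 genes was -0.53, beside 0.04 over all genes.

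Leaving out si-circ235-1 replicate 2 or si-circ235-2 replicate 2 reduced the calls between the siRNAs from 6 to 3. Without the former, HLA-B (adjusted p = 0.0502), TAP1 (0.68, adjusted p = 0.0808) and PSMB8 (adjusted p = 0.0865) were lost, and without the latter, HLA-B (adjusted p = 0.0535), B2M (adjusted p = 0.0873) and PSMB8 (adjusted p = 0.0783). Without si-circ235-1 replicate 1, HLA-B was lost (adjusted p = 0.0567), while HLA-E (0.80, adjusted p = 0.0315) and TAP2 (2.54, adjusted p = 0.0118) were called. TAPBP and PSMB9 differed between the siRNAs with any of the 6 libraries left out. Calls between the siRNAs over all tested genes fell in each of these fits as well.

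Taking both siRNAs as 1 group against NC, 0 of the 9 genes were called by edgeR, and 0 had an unadjusted p under 0.05. The background was 0 as well, since edgeR called 0 genes of 14415, while DESeq2 called 160 and 1379 had an edgeR p under 0.05 before adjustment. The log2 fold changes ran from -0.50 for PSMB9 (SE 0.42, adjusted p = 0.729) to 1.09 for HLA-C (SE 0.64, adjusted p = 0.619). TAPBP, called in both directions by the separate comparisons, was at 0.40 (SE 0.83, adjusted p = 0.903).

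The ranges of the libraries were also compared, without a test. Both si-circ235-1 libraries lay outside the range of the NC libraries for 5 of the 9 genes, HLA-B, HLA-C and B2M above it and TAP2 and TAPBP below it, against 55.0% of all tested genes. Both si-circ235-2 libraries lay outside it for 6 of 9, HLA-E, TAP1 and TAPBP above it and B2M, PSMB8 and PSMB9 below it, against 71.4%. The libraries of the 2 siRNAs did not overlap for 8 of 9 genes, all but HLA-C, against 72.1%. All 4 si-circ235 libraries were above, or all below, the NC range for 0 of 9 genes, against 22.8% of all genes. The comparisons with NC share the NC libraries.

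The scaling between libraries changed some of these calls. Without TMM factors the median over all genes moved to -0.11 under si-circ235-1, to 0.25 under si-circ235-2 and to 0.37 between the siRNAs, and the share of calls that were higher moved from 38.1% to 25.3%, from 50.1% to 71.0% and from 53.2% to 75.2%. Removing from each library a spline on GC content and length moved these shares to 60.4%, 43.3% and 42.5%. The directions of the called members against NC held under both. Between the siRNAs B2M (-0.45, adjusted p = 0.0654) and PSMB8 (-0.45, adjusted p = 0.0876) lost their calls without TMM factors, HLA-E (0.75, adjusted p = 0.0333) and TAP2 (1.64, adjusted p = 0.0341) gained them, and each gene kept its direction.

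**Figure D3:**
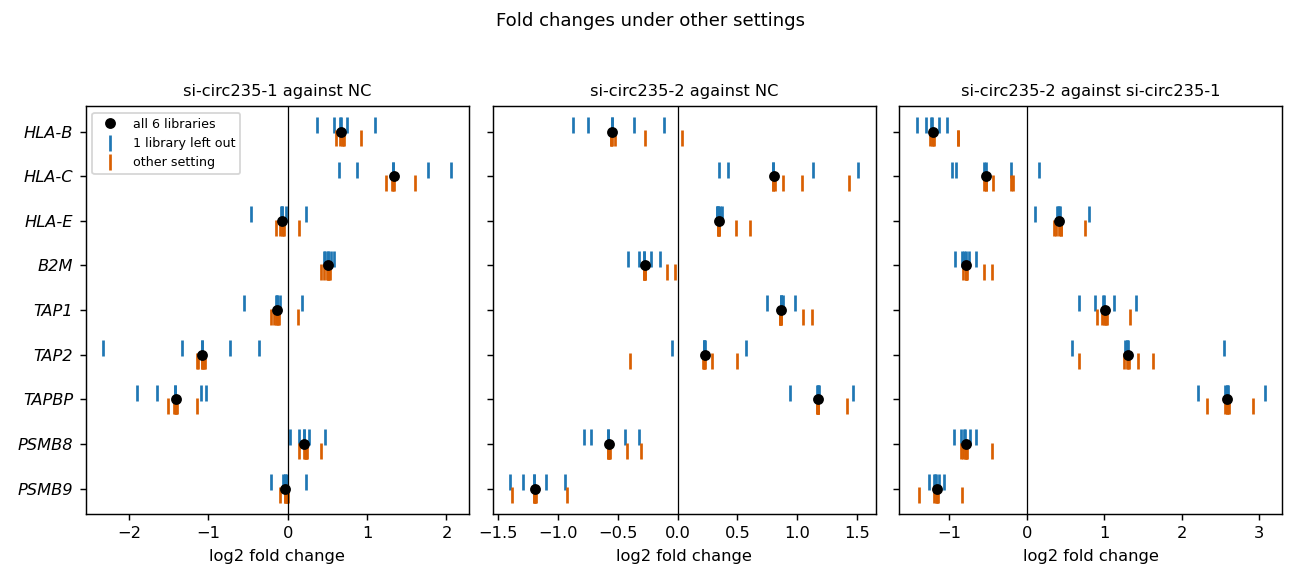
Log2 fold change of each class I gene (horizontal axis) in 3 comparisons, with a black point for all 6 libraries, blue ticks for fits with 1 library left out and orange ticks for the other settings. The TAPBP ticks lie below 0 under si-circ235-1 and above 0 in the other 2 panels, whereas the HLA-E, TAP1 and PSMB9 ticks lie on both sides of 0 under si-circ235-1, and those of HLA-B and TAP2 do so under si-circ235-2.

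Ratios of raw counts within a library do not depend on scaling between libraries. These ratios were chosen after the values had been seen and are given as descriptions, in the order NC, si-circ235-1 and si-circ235-2, replicate 1 before replicate 2. PSMB9 counts per TAP1 count, for the pair of genes that share a start region, were 1.41 and 1.01, then 1.02 and 1.77, then 0.285 and 0.294. The si-circ235-2 libraries lay below all others, where TAP1 was higher and PSMB9 lower. TAPBP counts per B2M count were 0.0455 and 0.0612, then 0.0179 and 0.0104, then 0.135 and 0.161, with no overlap between the 3 conditions. HLA-E counts per B2M count were 0.142 and 0.136, then 0.112 and 0.0735, then 0.193 and 0.238, again without overlap.

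Each immunoproteasome subunit can also be set against the constitutive subunit it replaces. PSMB8 counts per PSMB5 count were 0.201 and 0.216 in NC, 0.346 and 0.303 under si-circ235-1, and 0.280 and 0.266 under si-circ235-2, so that all 4 si-circ235 libraries lay above NC. PSMB9 counts per PSMB6 count were 0.158 and 0.172 in NC, 0.141 and 0.106 under si-circ235-1, and 0.144 and 0.150 under si-circ235-2, below NC in all 4. PSMB10, the third immunoproteasome subunit (beta-2i), was far below its constitutive counterpart PSMB7, at 0.0276 and 0.0227 counts per PSMB7 count in NC and 0.00359 to 0.0101 in the 4 si-circ235 libraries. The 3 subunits, which assemble together in the immunoproteasome, did not move as 1 against their counterparts.

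**Figure D4:**
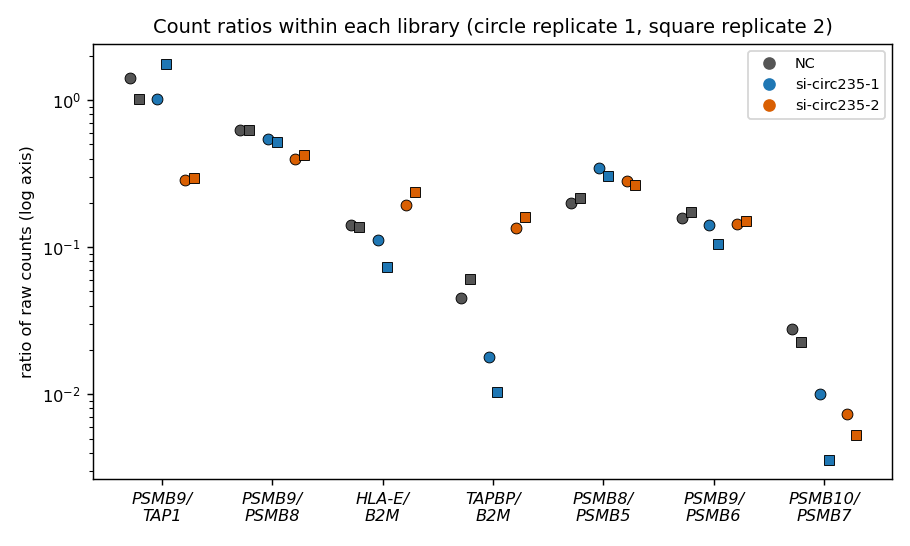
Ratio of raw counts of gene pairs within each library (vertical axis, log scale), with circles for replicate 1, squares for replicate 2 and colours for NC, si-circ235-1 and si-circ235-2. PSMB9 per TAP1 falls to 0.285 and 0.294 under si-circ235-2, TAPBP per B2M separates the 3 conditions, and PSMB10 per PSMB7 is lower in all 4 si-circ235 libraries than in NC.

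Other genes of the pathway were taken from 7 lists with 73 genes, of which 64 were tested. Under si-circ235-1 none of the 64 was called by edgeR, beside 5.88% of all genes, while 11 had an unadjusted edgeR p under 0.05 and DESeq2 called 4. Under si-circ235-2, 13 rose and 14 fell, or 42.2% of the tested list genes beside 31.4% of all genes. The median log2 fold change over the 64 genes was -0.03 and 0.03 in these 2 comparisons, so no common direction was seen over the lists.

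The proteasome list was lower under si-circ235-2. Of 8 genes besides PSMB8 and PSMB9, 7 fell and 1 rose there, beside 15.7% of all tested genes in each direction, and 0 were called by edgeR under si-circ235-1, where 3 had an unadjusted p under 0.05, with median log2 fold changes of -1.0 and 0.31 beside -0.004 and -0.03 over all genes. PSMB10 fell from 18.8 and 10.2 CPM in NC to 2.60 and 1.39 CPM, at a log2 fold change of -2.87 (SE 0.46, edgeR adjusted p = 0.00275), with 8.46 and 3.85 CPM under si-circ235-1. POMP, the chaperone of proteasome assembly, fell from 242 and 176 CPM to 93.3 and 95.7 CPM, at -1.15 (SE 0.22, adjusted p = 0.00424), and had 311 and 394 CPM under si-circ235-1. The constitutive catalytic subunits PSMB5, PSMB6 and PSMB7 fell at -0.97, -1.04 and -0.87, and the interferon-inducible activator subunits PSME1 and PSME2 fell at -0.64 and -1.03. PSME3, the subunit of a nuclear activator, rose at 0.74 (SE 0.20, adjusted p = 0.0177). The fall was thus counted in constitutive and in interferon-inducible subunits. Without NC replicate 1 most of the 8 genes lost their call, and most calls over all tested genes were lost as well.

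Of 8 peptide loading and trimming genes, 2 rose and 1 fell under si-circ235-2, or 37.5% beside 31.4% of all genes. ERAP1, which trims peptides in the endoplasmic reticulum, rose from 25.3 and 35.7 CPM to 63.2 and 64.6 CPM, at 1.07 (SE 0.22, edgeR adjusted p = 0.0059). CANX (calnexin), which folds new heavy chains, rose at 0.86 (SE 0.20, adjusted p = 0.00912), and BCAP31, an export factor of the endoplasmic reticulum, fell at -0.69 (SE 0.22, adjusted p = 0.0331). Of 6 tested class I and class I-like chains, the stress ligand MICB (1.78) and the iron regulator HFE (1.13) rose, and HLA-F (-1.79) and the IgG receptor FCGRT (-0.79) fell, or 66.7% beside 31.4% of all genes. MICB had 2.30 and 5.07 CPM in NC, 2.59 and 1.23 CPM under si-circ235-1 and 13.2 and 12.1 CPM under si-circ235-2.

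Regulators of class I transcription gave 4 rises and 3 falls among 21 tested genes under si-circ235-2, or 33.3% beside 31.4% of all genes. JAK1, a kinase of interferon receptors, rose from 186 and 222 CPM in NC to 402 and 398 CPM under si-circ235-2, at 0.97 (SE 0.20, edgeR adjusted p = 0.00539), with 189 and 153 CPM under si-circ235-1. Subunits of the complexes that bind the class I promoter were called in both directions. RFX5 rose (1.15) while its partner RFXANK fell (-1.27), and NFYA rose (1.10) while its partners NFYB (-0.94) and NFYC (-0.81) fell. The NFYB value ranged from -1.48 to -0.56 with 1 library left out, and its call was lost in 4 of 6 such fits and without TMM factors (-0.67, adjusted p = 0.145), where NFYC lost its call as well (-0.55, adjusted p = 0.0593). NLRC5, the class I transactivator, named here outside the rule for named genes and after its values were seen, had 42 and 36 counts in NC, 41 and 34 under si-circ235-1 and 42 and 67 under si-circ235-2 and was not called. Of 6 genes of post-translational turnover, TMEM127 (0.85) and SUSD6 (0.79), membrane proteins that bring class I molecules to degradation, rose under si-circ235-2. That was 33.3% of the list beside 31.4% of all genes, and both calls were lost with the length and GC trend removed.

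Interferon-stimulated genes did not move as a group. Of 13 tested, OAS3, a sensor of double-stranded RNA, rose from 35.9 and 37.9 CPM to 89.0 and 95.2 CPM under si-circ235-2, at 1.32 (SE 0.18, edgeR adjusted p = 0.00179). ISG15, a ubiquitin-like modifier, fell from 79.2 and 46.1 CPM to 34.9 and 25.5 CPM, at -1.05 (SE 0.28, adjusted p = 0.0181), and the other 11 were not called. The called share was thus 15.4% of the 13, beside 31.4% of all genes. With the length and GC trend removed, ISG15 was at -0.14 (edgeR adjusted p = 0.626). The median of the 13 was 0.20 under si-circ235-1 and -0.05 under si-circ235-2. Most MHC class II genes were at or near 0 counts, with HLA-DRA, HLA-DRB1 and HLA-DPB1 at 0 in every library. HLA-DMA had 8 to 36 counts and was not called. CIITA, the class II transactivator, rose from 9 and 8 counts in NC to 35 and 42 under si-circ235-2, at 1.90 (SE 0.51, adjusted p = 0.0171), with 8 and 9 counts under si-circ235-1. This call was lost without any 1 of the NC or si-circ235-2 libraries (adjusted p = 0.0790 to 0.106) and after removal of the length and GC trend (1.25, adjusted p = 0.0894).

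**Figure D5:**
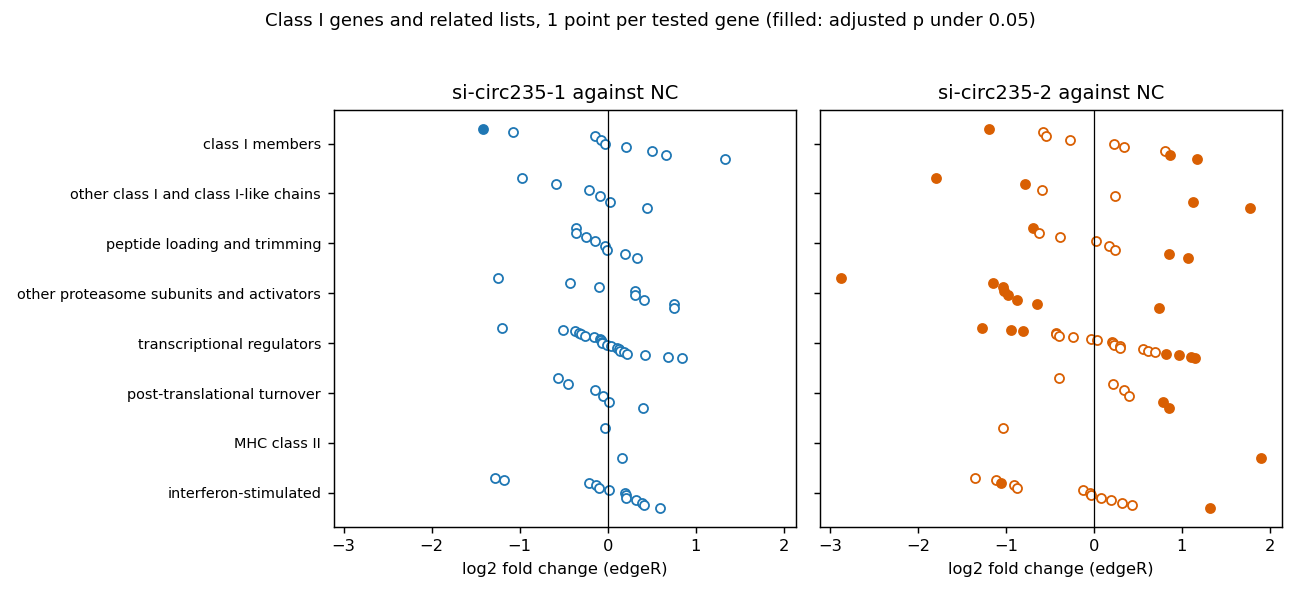
Log2 fold change (horizontal axis) of every tested gene of the 9 class I members and 7 related lists under si-circ235-1 (left) and si-circ235-2 (right) against NC, with filled points for an edgeR adjusted p under 0.05. On the left TAPBP at -1.41 is the only filled point, and on the right 7 of the 8 other proteasome genes are filled to the left of 0.

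Of the 27 list genes called under si-circ235-2, 24 lost their call without NC replicate 1, which left 3 calls. Without si-circ235-2 replicate 2, 8 lost it (BCAP31, CIITA, HLA-F, ISG15, NFYC, PSMB7, PSME1 and SUSD6, adjusted p = 0.0535 to 0.204), without si-circ235-2 replicate 1 CIITA, NFYB and PSME3 (0.0705 to 0.155), without NC replicate 2 CIITA and NFYB (0.0790 and 0.0772), and without si-circ235-1 replicate 1 NFYB (0.0502). Calls under si-circ235-2 over all tested genes also fell in each fit with 1 library left out. Without TMM factors 5 of the 27 lost their call (NFYC, FCGRT, PSME1, BCAP31 and NFYB). With the length and GC trend removed 10 of the 27 lost it, and no direction turned. Among the falls these included POMP (-0.18, edgeR adjusted p = 0.519), ISG15 (-0.14, adjusted p = 0.626), BCAP31 (-0.18, adjusted p = 0.329), FCGRT (-0.26, adjusted p = 0.266) and PSME1 (-0.29, adjusted p = 0.138). Among the rises they included JAK1 (0.36, adjusted p = 0.0722), TMEM127 (0.41, adjusted p = 0.0506), SUSD6 (0.35, adjusted p = 0.212) and CIITA (1.25, adjusted p = 0.0894).

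The study examined release of miR-330-5p from circ235, so its seed was searched for in the members. RefSeq gives the mature miRNA as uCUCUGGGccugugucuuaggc, encoded on the minus strand of chr19:45639049-45639070, with the seed (bases 2 to 8) in capitals. The matching 7-base word, CCCAGAG, was found in the longest 3' UTR of 1 of the 9 genes, TAP2, with 1 match in 3491 bases. Over 12145 tested genes with a 3' UTR, 20.5% held the word. TAPBP, TAP1 and PSMB9, the members called against NC, did not hold it.

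The mean profile of the 9 genes over the 6 libraries (each gene's log2 CPM centred) was most like that of TRIM21, at a Pearson r of 0.99, followed by MTA1 at 0.98, SH3BP5L at 0.98, RCL1 at 0.97 and CLP1 at 0.95, among 10371 candidate genes of at least 5 CPM on average. These are the highest of many values over 6 libraries in 3 conditions and are descriptions only. The members themselves were less like their own mean, from -0.34 for PSMB9 to 0.81 for HLA-E, so the mean profile stood for no single member.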

How the data were processed

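Poly(A)-selected RNA of 6 T24 libraries (2 NC, 2 si-circ235-1, 2 si-circ235-2) was sequenced without strand information. The authors deposited whole-number counts per gene that had not been normalized. The submitters' processing notes name FastQC, cutadapt, STAR and hg38, while for the counting step tool and annotation were not given in the sources used here. Counting of multi-mapping and overlapping reads bears on HLA-B, HLA-C, TAP2 and PSMB8.

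The sample labels gave condition and replicate. In R 4.3.3, edgeR 4.0.16 filtered low counts (filterByExpr, grouped by condition), scaled by TMM and fitted 1 mean per condition over all 6 libraries. Its quasi-likelihood p-values were adjusted by Benjamini-Hochberg over 14415 genes, with a threshold of 0.05. In the fourth comparison both siRNAs formed 1 group. Symbols, coordinates and lengths came from GENCODE 29, in which 99.5% of identifiers were found, and promoters and the miRNA from RefSeq. Profiles were of log2 CPM (prior count 2). The library totals of 15373992 to 19912893 counts set the counting error, and 2 libraries per condition limit the precision further.

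The members, the gene lists and the rule for named list genes (called against NC under either siRNA, at most 30 by p, which named 27) were chosen with earlier results of these data known. A called list gene and a marker are counted but not reported here by name. The alternatives used DESeq2 1.42.0, left out the TMM factors or the filter, or used a replicate block, a removed length and GC trend (splines with 5 degrees of freedom), the heavy chains summed, 2 conditions fitted alone and each library left out. For the pathway lists they were chosen after seeing the data. The fits were tested on simulated data. Figures were drawn with matplotlib 3.10.9.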

Additional observations from a re-analysis of the deposited data

Results flagged for a closer look

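The 2 siRNAs, directed at the same circular RNA and compared with the same NC libraries, had effects that differed from each other by edgeR's quasi-likelihood test in 6 of the 9 genes. The log2 difference, si-circ235-2 minus si-circ235-1, was 2.59 for TAPBP, 1.01 for TAP1, -0.78 for B2M, -0.79 for PSMB8, -1.16 for PSMB9 and -1.21 for HLA-B. Of all tested genes, 39.7% differed in the same way, so such differences were common in these libraries. TAPBP was the member called against NC under both siRNAs, in opposite directions.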

How the results depend on the processing

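Over the 4 comparisons, 403 of 446 values of the 9 genes and their settings kept their direction and their side of the threshold, 17 lost a call, 9 gained one and 17 changed sign, none of the last a called value. The genes called were 2, 4, 6 and 0 with DESeq2 in place of 1, 3, 6 and 0 (in the order si-circ235-1, si-circ235-2, si-circ235-2 against si-circ235-1, and both together), 2, 3, 6 and 0 after removal of the length and GC trend, and 7 between the siRNAs without the filter. DESeq2 added B2M under si-circ235-1 and PSMB8 under si-circ235-2 (-0.58, adjusted p = 0.0484), and the trend removal added HLA-B under si-circ235-1 (0.92, adjusted p = 0.0401). DESeq2 gave 1 member value no adjusted p. The cause of these changes was not tested. With the trend removed, the sign turned for HLA-E (0.14), TAP1 (0.14) and PSMB9 (0.00155) under si-circ235-1, for HLA-B (0.034) and TAP2 (-0.40) under si-circ235-2 and for PSMB8 (0.055) under both together. With 1 library left out, the calls ranged from 0 to 1, 0 to 3, 3 to 7 and 0 to 0. Signs also turned there, within -0.46 to 0.24 for HLA-E, -0.55 to 0.18 for TAP1 and -0.21 to 0.23 for PSMB9 under si-circ235-1, -0.051 to 0.57 for TAP2 under si-circ235-2, -0.97 to 0.15 for HLA-C between the siRNAs, and -0.13 to 0.62 for HLA-B, -0.54 to 0.075 for TAP2 and -0.32 to 0.13 for PSMB8 under both together.

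Over all genes, 847 calls under si-circ235-1 became 1519 with DESeq2, 1678 without the filter, 1969 with the trend removed, 1642 with 2 conditions alone and 0 to 1482 with 1 library left out. The 4530 calls under si-circ235-2 became 769 to 4240 and the 5725 between the siRNAs 2817 to 5558 with 1 library left out. The list calls under si-circ235-1 went from 0 to 4 with DESeq2, 6 without the filter, 5 with the trend removed and 5 with 2 conditions alone. The replicate numbers did not pair the libraries (r of deviations from the condition mean -0.09, 0.15 and 0.14). The fit with the replicate number as a block gave 1, 3, 6 and 0 calls of the 9 genes and 937 over all genes under si-circ235-1, and changed no call of the 9 genes. Low counts of HLA-C and TAP2 limit what could be shown for them.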
